A study of Caenorhabditis elegans with 2 samples.

Results

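The X chromosome carried 1699 of the 7065 peaks that passed the irreproducible discovery rate (IDR) step for SMA-9, all of them entries of the authors' final peak list with X as their chromosome. SMA-9 is a zinc-finger transcription factor related to Schnurri that acts with the Smad proteins of the BMP-like pathway in body size and in the fate of the postembryonic mesoderm lineage. Chromatin was immunoprecipitated with an antibody to GFP from whole Caenorhabditis elegans hermaphrodites at the L2 larval stage, 22 hours after release from starved, bleach-synchronised L1 larvae. The strain, LW1254, carries the transgene jjIs1254, in which sma-9C2 is fused to gfp and accompanied by unc-119(+), in an unc-119(ed4) background. The labels give no promoter for the fusion, no insertion site and no allele of the native sma-9 gene, and whole larvae mix all cell types. There were 2 biological replicates of this 1 group and no other condition. A control experiment that the labels name was not analysed here.

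The X chromosome of C. elegans is unlike the autosomes in several ways that are known apart from these data. It holds fewer genes per length, has no sharp division into a gene-rich centre and repeat-rich arms, and is poor in genes needed in the germ line. In hermaphrodites both X chromosomes are held down in transcription by the dosage compensation complex, a condensin-like complex that SDC-2 brings to recruitment sites along X, where a short DNA motif enriched on X recurs.

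The sequences around X summits included copies of the core of that recruitment motif. The core searched was GCGCAGGG, or CCCTGCGC on the other strand, in windows of 101 bases (the summit and 50 on each side). The 6 X windows of highest signal that held it are shown because they carry the clearest sequence difference between X and the autosomes. They are written 5′ to 3′ on the forward strand of the RefSeq sequence of WBcel235, the assembly also named ce11, with the core in capitals.
intergenic, nearest gene W02H3.3, chrX:11094168-11094268: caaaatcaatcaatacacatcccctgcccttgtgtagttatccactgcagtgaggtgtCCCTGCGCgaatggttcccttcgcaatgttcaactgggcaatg
mom-1 intron, chrX:6296507-6296607: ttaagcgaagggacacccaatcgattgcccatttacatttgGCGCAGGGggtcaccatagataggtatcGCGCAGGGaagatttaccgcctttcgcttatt
intergenic, nearest gene hpk-1, chrX:4209233-4209333: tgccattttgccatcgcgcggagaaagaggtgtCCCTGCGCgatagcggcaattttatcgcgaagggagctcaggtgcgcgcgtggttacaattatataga
upstream of nspc-17, chrX:14525867-14525967: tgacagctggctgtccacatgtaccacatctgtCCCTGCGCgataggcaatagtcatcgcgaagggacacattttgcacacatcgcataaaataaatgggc
Y41G9A.17 intron, chrX:2997043-2997143: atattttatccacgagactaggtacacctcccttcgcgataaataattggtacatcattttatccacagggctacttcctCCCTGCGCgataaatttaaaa
intergenic, nearest gene C34D10.1, chrX:8036381-8036481: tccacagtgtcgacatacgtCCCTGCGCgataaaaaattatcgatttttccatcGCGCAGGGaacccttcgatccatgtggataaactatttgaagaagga

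The window of the fourth strongest X peak, just before the start of mdl-1, is shown because it sits in the longest run of summits. Its capitals mark an E-box, CACGTG, which reads the same on both strands and is the usual site of bHLH factors.
mdl-1 upstream, chrX:6742209-6742309: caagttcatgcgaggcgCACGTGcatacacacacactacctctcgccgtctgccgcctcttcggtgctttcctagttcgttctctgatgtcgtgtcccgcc

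The core was found in 19 of 1699 X summit windows, or 1.12% (95% Wilson interval 0.717 to 1.74). It was found in 4 of 5366 autosomal summit windows, or 0.0745% (0.029 to 0.192). The strongest 7065 peaks of replicate 1 alone gave 1.05% on X and 0.0374% on the autosomes, and those of replicate 2 alone gave 1.11% and 0.0734%. Windows of the same length 250 bp to either side of the summits held it in 0.0883% on X and 0.0186% on the autosomes, and windows tiled over the whole chromosomes in 0.0388% and 0.0263%. The flanking shares rest on 3 X and 2 autosomal windows. The X share was above the autosomal share in all 3 kinds of window, and it was highest at the summits. Mean GC content was close in the X and autosomal summit windows, at 44.3% ± 7.36 and 43.9% ± 7.27 (SD over 1699 and 5366 windows).

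Looked at from the motif, X held 81 copies of the core and the autosomes 233. An IDR summit lay within 200 bp of 32 of the 81 X copies (39.5%, 29.6 to 50.4), and of 15 of the 233 autosomal copies (6.44%, 3.94 to 10.3). Replicate 1 alone gave 40.7% and 6.01%, and replicate 2 alone 42.0% and 6.87%. With 1 more base of the known motif, CGCGCAGGG, 19 of 33 X copies (57.6%, 40.8 to 72.8) and 0 of 44 autosomal copies (0 to 8.03) had a summit that close. So most copies of the longer form on X were marked, and the same letters on the autosomes were not marked in the IDR list. In the longer pooled list of calls, which includes calls below the IDR step, 3 of those 44 autosomal copies had a summit within 200 bp.

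The motif windows were concentrated among strong X peaks. Of the 100 strongest X peaks 8 held the core (8.0%, 4.11 to 14.998), against 2 of the next 200 (1.0%) and 4 of the 699 weakest (0.572%). Their signals, the authors' own peak scores, ran from 71.4 to 1280 with a median of 238, and the 4 autosomal windows ran from 69.9 to 189.9. All 19 X windows had their summit inside a call of both replicates. The same held for 1614 of all 1699 X peaks, so it does not set the motif windows apart. By place, 9 of the 19 windows were distal intergenic, 5 upstream of a gene, 3 intronic and 2 elsewhere. The genes nearest to or holding them included mom-1 (a Porcupine homologue needed for Wnt secretion), hpk-1 (a homeodomain-interacting protein kinase), cdk-4 (a cell cycle kinase), dve-1 (a homeobox factor of the mitochondrial stress response) and ins-39 (an insulin-like peptide), all named here after their values were seen.

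A count of every 8-base word in the summit windows, made without choosing a motif, put the same sequence at the head. Of 1372 words found in at least 15 X windows, the 3 with the highest ratio of X to autosomal share were CCTGCGCG (20 X and 1 autosomal window), CCCTGCGC (19 and 4) and CTGCGCGA (16 and 6). These 3 words overlap one another and all lie within the known motif. The next word in the order, AGTGGTAG, was found in 18 X and 13 autosomal windows. The floor of 15 windows was set on X alone, and the windows are those counted above, so the ranking is not separate evidence for the motif. It is a description of 1 set of peaks and carries no test. No data on the dosage compensation complex itself were analysed here.

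Of the other motifs, a GA repeat and a GC repeat had lower shares on X than on any autosome. A GA repeat, GAGAGAGA on either strand, was found in 3.65% of X windows (2.86 to 4.65; 3.67% and 3.95% in the replicates) and in 4.87% to 11.4% of the windows of single autosomes. The lower X share held in upstream windows (4.49% against 6.09% on the autosomes), in introns (2.23% against 8.25%) and in distal intergenic windows (3.31% against 10.3%). Beside the summits the GA repeat was found in 0.912% of X and 1.01% of autosomal windows. A GC repeat, GCGCGC, was found in 2.88% of X windows (2.19 to 3.79, an interval that takes in the lowest autosome; 2.97% and 2.35% in the replicates) and in 3.03% to 5.88% of those of single autosomes. The E-box CACGTG was found in 7.47% of X and 7.32% of autosomal windows, against 1.38% and 1.58% beside them. The GATA-factor site TGATAA was found in 19.5% and 20.6%, against 10.04% and 10.5% beside them, and the AP-1 site TGACTCA in 1.65% and 1.19%, against 1.29% and 1.12%. The Smad palindrome GTCTAGAC was found in 0 of 1699 X windows (an upper Wilson bound of 0.226%) and in 0.149% of autosomal ones.

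**Figure D1:**
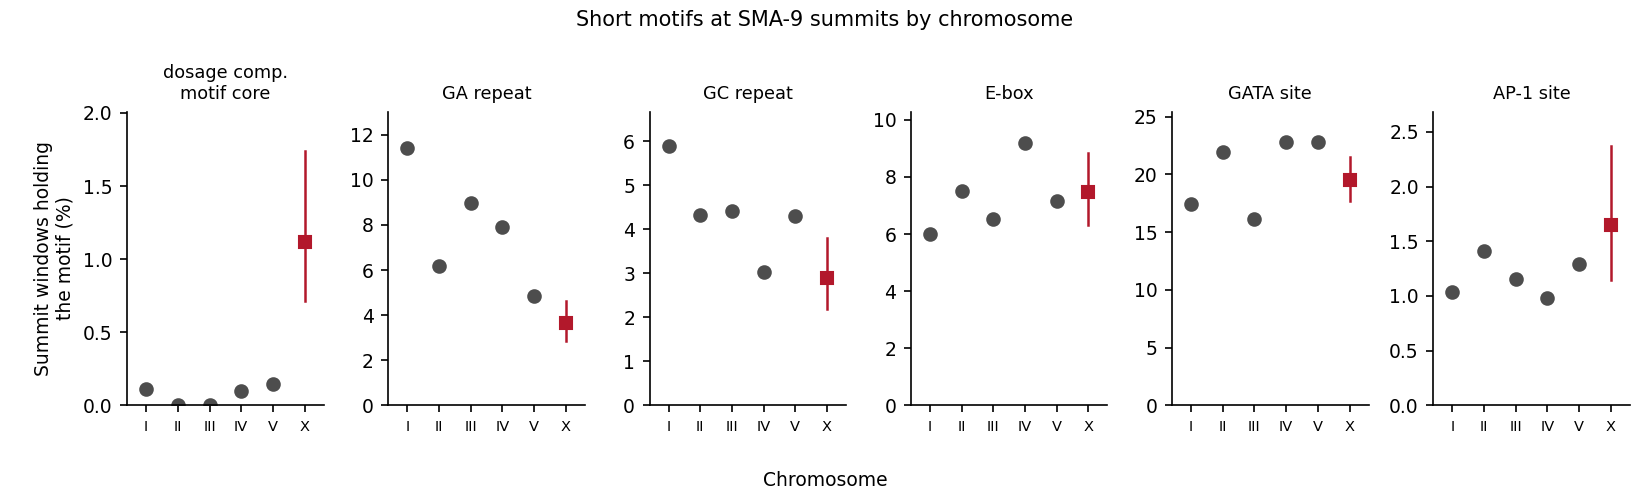
Share of 101-base summit windows that held each motif (vertical axes, percent, each from 0) on each of the 6 chromosomes (horizontal axes), with autosomes as circles and X as a square with its 95% Wilson interval. The dosage compensation motif core stood at 1.12% on X and at 0.143% or less on each autosome, and the GA repeat was lowest on X.

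Per length, X carried 95.9 peaks per megabase (96.8 and 91.4 in replicates 1 and 2 alone), and single autosomes 57.5 to 74.1. X was also poorer in genes, so it carried 62.2 peaks per 100 protein-coding genes, and the autosomes 28.0 to 35.9. The lower and higher values did not overlap between X and any autosome on either scale. With 1 X chromosome among 6, the smallest p an exact permutation over chromosomes could give is 0.167, so no test was made. Single autosomes stand beside X values instead, with each replicate alone where it is given.

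Most of that gap lay outside the chromosome centres. Each chromosome was cut into 3 parts of equal length, a centre and a left and right end part. In the centre, X carried 99.4 summits per megabase and the autosomes together 97.2, with single autosomes from 84.5 (IV) to 115.1 (II). In the end parts, X carried 94.1 and the autosomes 48.9, with single autosomes from 42.5 (I) to 56.4 (III). The ratio of X to autosomes was thus 1.02 in the centres (1.07 and 0.978 in replicates 1 and 2) and 1.92 outside them (1.9 and 1.79). X density in the centre fell inside the autosomal range, and X density outside the centre was above that of every autosome. The ends of X were unequal, with 77.04 summits per megabase in the left part and 111 in the right part (76.5 and 113 in replicate 1, 71.4 and 106 in replicate 2).

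**Figure D2:**
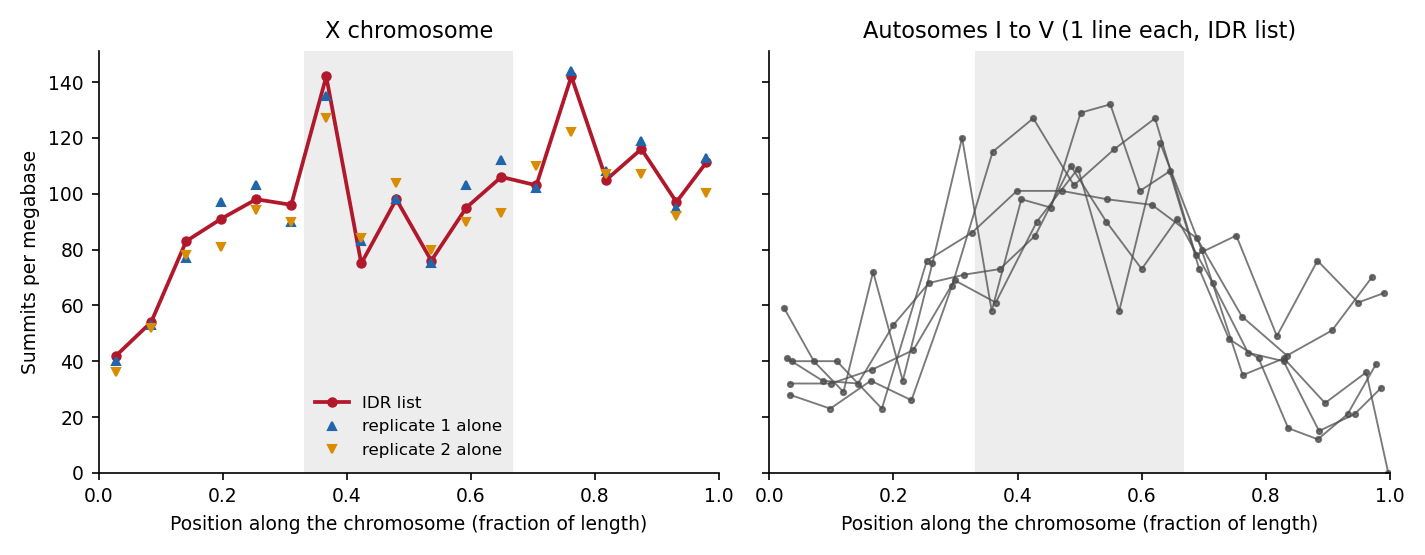
Summits per megabase (vertical axis) in windows of 1 megabase against position as a fraction of chromosome length (horizontal axis), for X in the IDR list and each replicate alone (left) and for each autosome in the IDR list (right). The last window of a chromosome is shorter and is scaled to its length, and grey marks the centre. X rose from 42 in its first window to 142 in its seventh and stayed at 75 or more from there to its right end, while the autosomes fell away on both sides.

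Genes followed the same pattern. A gene is called summit-bearing here when at least 1 of its annotated 5′ ends had an IDR summit no more than 1000 bp away, before or after it. On X 711 of 2731 protein-coding genes were summit-bearing (26.03%, 24.4 to 27.7), where the background was 19.2% of autosomal genes and 20.2% of all genes, with single autosomes from 18.04% (IV) to 22.5% (III). Replicate 1 alone gave 26.2% on X and replicate 2 alone 24.2%, and 558 of the 711 (78.5%) were summit-bearing in both. In the centre 27.6% of X genes (24.9 to 30.5) and 26.04% of autosomal genes (24.99 to 27.1) were summit-bearing. In the end parts the shares were 25.1% (23.2 to 27.2) and 15.1% (14.4 to 15.8). Genes with 1 annotated 5′ end were summit-bearing in 21.4% on X and 15.7% on the autosomes, and those with 3 or more in 43.7% and 37.4%.

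**Figure D3:**
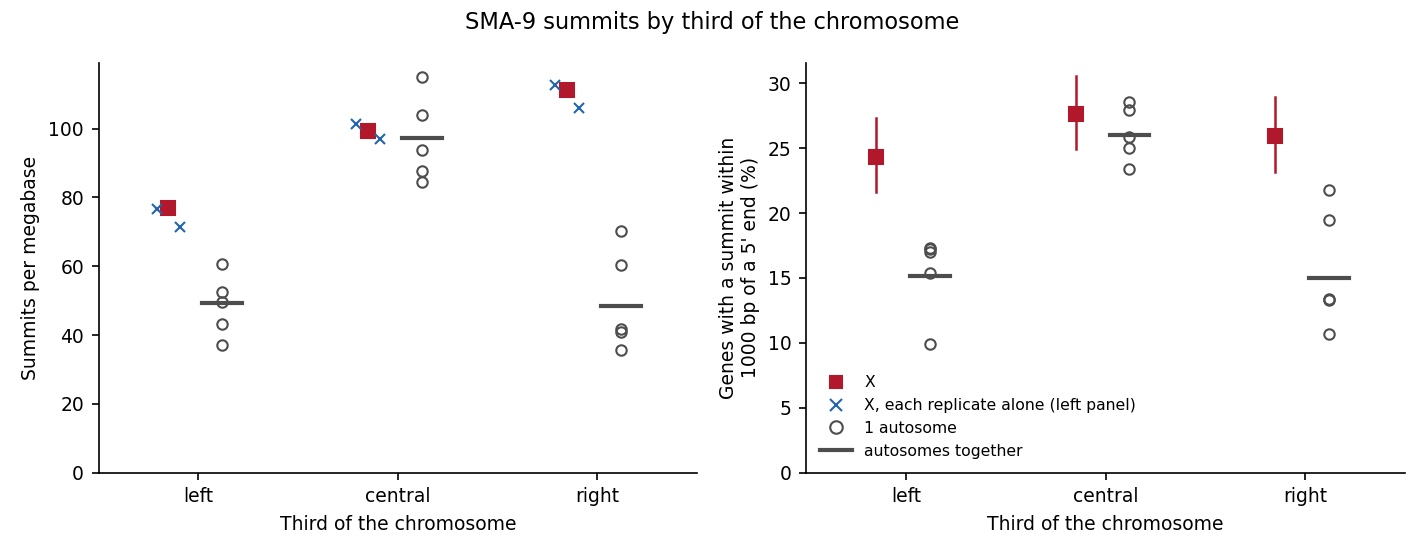
Summits per megabase (left) and the percentage of protein-coding genes with a summit within 1000 bp of a 5′ end (right) in the left, central and right of 3 equal parts of each chromosome. X is a square (with replicates as crosses on the left and 95% Wilson intervals on the right), each autosome a circle and all autosomes together a bar. X lies among the autosomes in the central part, and above the autosomes together in both end parts.

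Peak strength was close on X and on the autosomes. The median signal was 108 on X (quartiles 77.97 and 166) and 109.7 on the autosomes (79.9 and 180.1), and the median peak width was 270.0 bp on both. At the very top, X held 17 of the 50 strongest peaks (34.0%, 22.4 to 47.8), 14 of 50 in replicate 2 alone, and 229 of the 1000 strongest (22.9%). Calls below the IDR step fell on X at nearly the same rate, 5536 of 22935 (24.1%). A summit lay inside a call of both replicates for 1614 of 1699 X peaks and 5113 of 5366 autosomal ones. The 2 replicates' signals at X peaks had a Pearson correlation of 0.764 on the log2 scale across the peaks, which share the same 2 libraries.

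By place, X summits lay farther from protein-coding 5′ ends. The median distance to the nearest protein-coding 5′ end was 1065 bp on X and 608 to 800.0 bp on single autosomes. Upstream summits, within the 1000 bp before a 5′ end and outside exons, made up 36.7% on X (34.4 to 38.99; 35.7% and 36.1% in the replicates) and 44.7% to 46.6% on single autosomes. Distal intergenic summits made up 30.3% on X (28.1 to 32.5) and 23.5% to 27.2% on single autosomes, where such sequence covers 29.3% of X and 19.97% of the autosomes. Intronic summits made up 21.1% on X and 15.9% to 21.1% on single autosomes.

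Against the amount of each kind of sequence, X was denser in most classes, in values that carry the higher density of X as a whole. The share of summits over the share of sequence was lower on X than on the autosomes in upstream (2.28 and 2.58), distal intergenic (1.03 and 1.25), 5′ UTR (1.64 and 2.58) and 3′ UTR (0.304 and 0.398) sequence. It was higher on X in introns (0.787 and 0.667), coding exons (0.192 and 0.105) and other genes (1.63 and 0.799). Introns carried 75.5 summits per megabase on X and 35.4 to 57.1 on single autosomes. Upstream sequence carried 218 on X and 152 to 202 on single autosomes. Coding exons carried few, but 18.4 per megabase on X (65 summits, with a median signal of 85.0) against 4.06 to 8.73 on single autosomes. Distal intergenic sequence carried 99.0 on X and 64.01 to 94.9 on single autosomes, and 5′ UTRs carried 158 against 115.4 to 213. In 3′ UTRs X carried 29.1, against 13.1 to 42.1 on single autosomes. In the IDR list X was above every autosome in introns, coding exons, upstream and distal intergenic sequence, and within the autosomal range in both kinds of UTR. In replicate 1 alone X was also above every autosome in the first 4 of these. In replicate 2 alone it was above every autosome in introns and coding exons, level with chromosome III in upstream sequence (205 against 204.9) and below it in distal intergenic sequence (92.6 against 98.9).

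**Figure D4:**
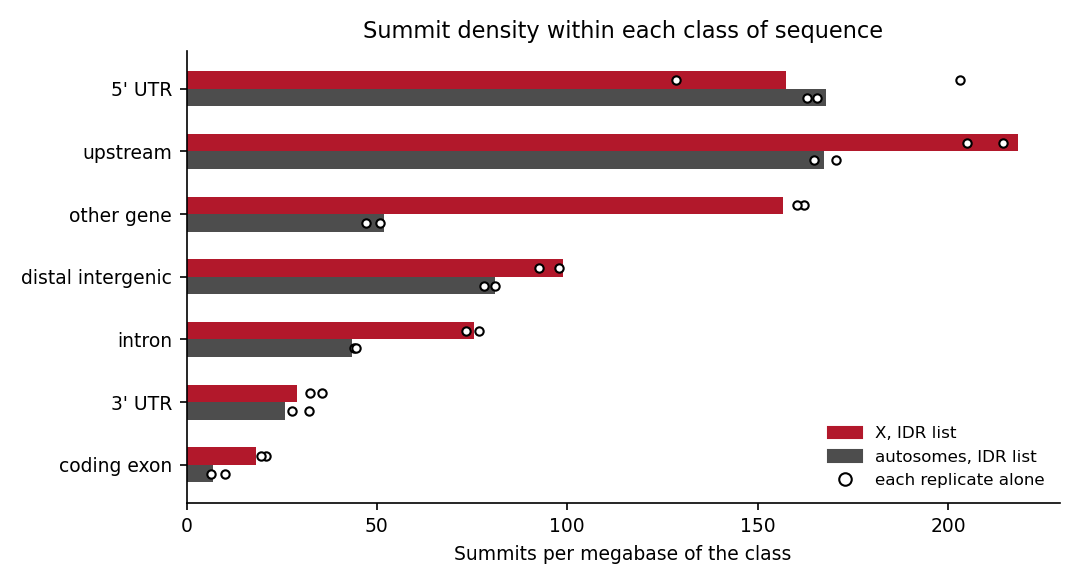
Summits per megabase of each class of sequence (horizontal axis, from 0) for X and the 5 autosomes together, with bars for the IDR list and white points for each replicate alone. X bars exceed autosomal bars most in non-coding "other gene" sequence (157 against 51.9), coding exons (18.4 against 6.85) and introns (75.5 against 43.4), and not in 5′ UTRs (158 against 168).

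Summits in genes other than protein-coding ones were also denser on X, at 157 per megabase against 42.6 to 67.9 on single autosomes. Of those 83 X summits, 69 lay in genes annotated as ncRNA and 19 in tRNA genes, some in both. X is known to be rich in tRNA genes, the templates of RNA polymerase III, and it held 276 of the 612 annotated here. A summit lay within 1000 bp of the 5′ end of 173 X tRNA genes (62.7%, 56.8 to 68.2) and of 147 of 336 autosomal ones (43.8%, 38.5 to 49.1), where the rate over all tRNA genes was 52.3%. Within 200 bp the shares were 48.9% and 35.1%. Summits within 1000 bp of a tRNA 5′ end made up 8.71% of X summits (8.28% and 8.46% in the replicates) and 2.61% of autosomal ones. With all of them left out, X carried 87.5 summits per megabase and the autosomes 63.3, and introns carried 66.0 and 41.0.

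X-linked microRNA genes stood at the background. A summit lay within 1000 bp of the 5′ end of 16 of 74 (21.6%), where the rate over all microRNA genes was 21.8%. The strongest, with a signal of 396, lay at X 13145156 to 13145544 beside mir-54, mir-55 and mir-56, which sit in 1 cluster and share that peak. Among long intergenic RNA genes linc-78 had the strongest, with a signal of 623 at X 2242898 to 2243095, between it and rpl-11.2, a gene for a large ribosomal subunit protein.

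Summits on X gathered into runs. When summits no more than 2000 bp apart were joined, X had 29 runs of 5 or more, holding 12.7% of its summits, and single autosomes had 5.77% to 11.8% of theirs in such runs. A fixed distance joins more summits where they are denser, and the higher density of X was not allowed for. The share of X summits with a neighbour within 2000 bp was 49.9% (47.5 to 52.2) against 48.0% (46.7 to 49.3) on the autosomes. Single autosomes ran from 44.5% (I) to 50.8% (II), so X lay within their range on this measure. The longest run of the whole list was on X, with 21 summits over 14.5 kb from X 6735794 to 6750301, and the replicates alone had 21 and 18 summits there. It spans mdl-1, a MAD-like bHLH factor that pairs with MAX-like partners, and reaches into abts-4, an anion transporter gene.

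Signals in that run went from 62.8 to 1688 with a median of 221, and 4 of its peaks ranked in the top 50 genome-wide. The highest X peak of all, at X 6737422 to 6738097, lay between genes, 4510 bp upstream of R03E9.2 and about as far before mdl-1, beside the ncRNA gene R03E9.6. It had signals of 941 and 742 in replicates 1 and 2, where it ranked 7 and 9. The peak at the mdl-1 start, at X 6742063 to 6742474, had its summit 92 bp upstream and signals of 1260 in the pooled calls, 689 in replicate 1 and 573 in replicate 2. The peak at X 6743856 to 6744278, past the end of mdl-1 and in the ncRNA gene R03E9.10, had 1015, 611 and 383. The intronic abts-4 peak at X 6750159 to 6750609 had 1133, 739.7 and 400.3, so all 4 ranked high in both replicates. Their signals were higher in replicate 1, as were those of X peaks at the median (a log2 difference of -0.33, replicate 2 minus replicate 1).

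**Figure D5:**
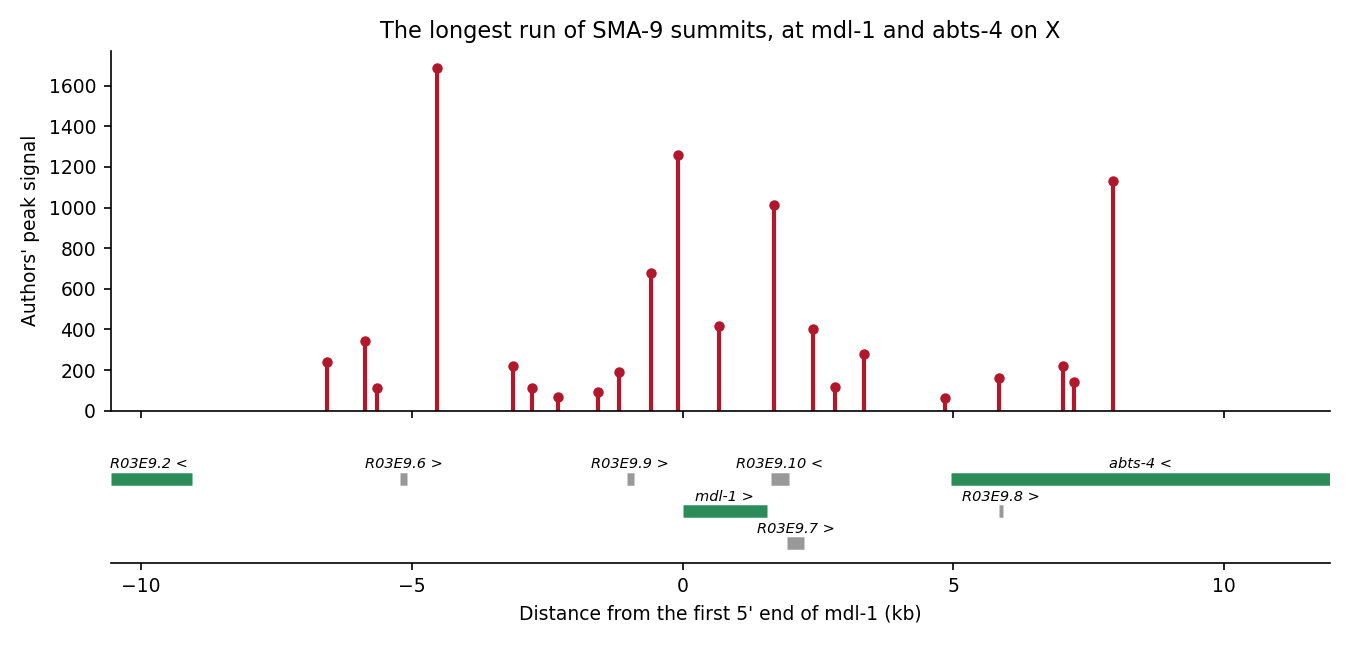
Authors' peak signal (vertical axis, from 0) of each IDR summit in the longest run, against distance in kb from the 5′ end of mdl-1, with protein-coding genes as green bars and non-coding genes as grey bars below (arrows give strand, and R03E9.2 and abts-4 run past the edges). The 4 tallest summits, from 1015 to 1688, are spread over the run and alternate with summits as low as 62.8.

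The next runs on X held 14 summits at mxl-3, ptr-24 and C49F8.15, 11 at sma-9, 11 at nhr-3 and ram-5, 10 at ZK470.2 and 10 at H18N23.2. mxl-3 encodes a MAX-like bHLH factor and ptr-24 a patched-related protein, and their run reached a signal of 933. A run of 9 summits from X 6250376 to 6257038 lay within 1000 bp of no protein-coding gene and reached 556. The sma-9 gene itself (X 10769282 to 10782973) held or neighboured 7 summits within 1000 bp, and its run began before the gene. There the peak at X 10766013 to 10766638 had signals of 1495, 709 and 792 in the pooled calls and replicates 1 and 2. The peaks at X 10772120 to 10772524 and at X 10770955 to 10771483 had 1062, 626 and 451, and 1014, 605 and 412. The transgene carries sma-9 sequence, and reads from it and from the native gene cannot be told apart. With peaks at the gene and within 3000 bp left out, X still held 23.9% of all peaks.

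Beyond the mdl-1 and sma-9 runs, strong X peaks lay both inside and far from genes. The third strongest, at X 11093959 to 11094374, lay 3968 bp from the nearest 5′ end, that of W02H3.3, and is the first of the motif windows printed above, with signals of 784 and 502 in the replicates. F28C10.3 had a peak of 1160 with its summit 120 bp upstream (618 and 557 in the replicates). puf-9, a Pumilio-family RNA-binding protein, had one of 1076 with its summit 272 bp upstream (627 and 459.8). An intron of ZK470.2 had one of 1075 (650.4 and 429), and an intron of nhr-3, a nuclear hormone receptor gene, one of 1062 (557 and 498). A peak of 1057 lay 8130 bp upstream of nhr-1, another nuclear receptor gene (554 and 522). The mom-1 intron, the second printed window, had 1000 (636 and 368), and serp-1.1 had 963 with its summit 298 bp upstream (534 and 445). All of these ranked among the 69 strongest of each replicate alone.

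Some long genes were dotted with summits. On X 23 of 2731 protein-coding genes had 5 or more summits in the gene or within 1000 bp (0.842%), where the rate on the autosomes was 0.435%, with single autosomes from 0.28% to 0.556%. X genes were also longer, with a median of 2548 bp against 1964 bp on the autosomes, and X carried more peaks per megabase. Neither was allowed for in these counts. lin-14, the nuclear factor that sets early larval fates and is repressed by the lin-4 microRNA, had the most, 13 over a gene of 20312 bp, with a highest signal of 287. H18N23.2 and scd-1 had 12 each, ZK470.2 had 10, F49E2.5 had 8, abts-4 and sma-9 had 7 each and C30G4.4 had 6, a number it shared with at least 4 other genes.

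Summits along X were uneven without following genes. Windows of 100 kb held 9.6 ± 5.61 summits (SD over 177 windows), and the number of summits and of protein-coding genes in a window had a Pearson correlation of 0.0356, given as a description. The densest, from X 6200001 to 6300000, held 31 summits (30 and 27 in the replicates), with its strongest in mom-1. The windows from 6700001 to 6800000 (mdl-1) and from 13300001 to 13400000 (mxl-3) held 30 each, that from 14500001 to 14600000 (nhr-3) held 28, and that from 15300001 to 15400000 held 26 with only 8 protein-coding genes. Each of these 5 windows had 25 or more summits in each replicate alone.

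Long stretches without an IDR summit took up less of X. Gaps over 50 kb between neighbouring IDR summits took up 18.4% of X and 38.1% to 46.2% of single autosomes, with the higher density of X not allowed for. The longest on X, 211 kb from X 1627129 to 1837907, held 36 protein-coding genes, among them the T-box genes tbx-31 and tbx-32, 3 fbxa F-box genes and the Notch ligand gene arg-1. Gaps of 126 kb (31 protein-coding genes), 125 kb (16, among them the troponin T gene tnt-3 and the calcium channel gene cca-1), 119.8 kb (22) and 103 kb (31) followed. The last of these held 7 srd chemoreceptor genes and the homeobox gene ceh-40. The 5 gaps were not empty of weaker calls, with 7 to 41 each in the longer pooled list.

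The genes that act on X themselves were mixed. Of the sex determination and dosage compensation genes chosen, 4 of 6 on X and 3 of 15 on the autosomes were summit-bearing, where 26.03% of X genes and 19.2% of autosomal genes were. sdc-2, which brings the dosage compensation complex to X, had a peak of 159 with its summit 386 bp upstream, and sdc-1, which acts with it, had 87.2 at 340 bp upstream. fox-1 and sex-1, X-linked counters of X number, had 67.2 and 64.3. Neither of those weak peaks was at a 5′ end in both replicates alone. xol-1, the switch those counters act on, and ceh-39, another counter, had no summit within 1000 bp of a 5′ end in the IDR list. The median signal of the 4 summit-bearing genes was 77.2, against 118 over all summit-bearing X genes.

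Each of the chosen timing genes found by name on X was summit-bearing. let-7, also chosen, was not found under that name in the gene models and is not counted. No let-7 gene was among the 16 X microRNA genes with a summit within 1000 bp of the 5′ end. The X count below therefore leaves it out, and would not be complete with let-7 counted on X. Of the heterochronic genes found, 6 of 6 on X and 6 of 9 on the autosomes were, beside 26.03% of all X genes and 19.2% of all autosomal genes. The median signal at their 5′ ends on X was 108, with lin-14, nhr-25 and alg-1 above the 118 of all summit-bearing X genes and the rest below it. lin-14 had its strongest peak of 287 with the summit 151 bp upstream. nhr-25, a Ftz-F1 nuclear receptor of molting, had 152, alg-1, an Argonaute of the microRNA pathway, had 141, and hbl-1, a hunchback homologue, had 75.02. In replicate 2 alone hbl-1 had no summit within 1000 bp of a 5′ end. daf-12, a steroid-hormone receptor gene, and the microRNA gene mir-84 had 70.3 and 72.4. Stronger peaks lay in or within 3000 bp of hbl-1, daf-12 and mir-84 but farther from their 5′ ends, at 157, 302 and 254.9. The heterochronic list was small, and its X members were described with values from the same peaks known.

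Of the TGF-beta signalling genes chosen, which cover the BMP-like and the dauer branch, 2 of 3 on X and 8 of 18 on the autosomes were summit-bearing, beside 26.03% and 19.2% of all genes. The first of those X genes is sma-9, whose own reads cannot be told from those of the transgene. The other, daf-3, a Smad of the dauer TGF-beta branch, had a peak of 131 with its summit 661 bp upstream. lon-2, the glypican that restrains the BMP-like ligand, had no summit in the gene or within 3000 bp. Of the EGF, FGF and Ras genes 3 of 8 on X and 4 of 16 on the autosomes were summit-bearing, beside the same shares of all genes. sem-5, the Grb2 adaptor, had 194, lin-15B, a regulator of vulval induction and germline genes, had 179.8, and the FGF gene egl-17 had 151. The FGF receptor gene egl-15, gap-1 (a Ras GTPase activator) and ksr-1 (a Ras pathway scaffold) had no summit in the gene or within 3000 bp.

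The muscle and neuronal lists as chosen stood apart from each other in their counts, on X and on the autosomes alike, with no test of the difference made. Of the muscle and mesoderm-lineage genes chosen, 10 of 19 on X and 11 of 20 on the autosomes were summit-bearing, beside 26.03% and 19.2% of all genes, with a median signal of 111.9 on X. mup-2, a troponin T, had 202 and unc-98, a muscle attachment protein, had 119.1. unc-115, with 210.1, was also counted in this list. It encodes an actin-binding LIM protein known from axon guidance, so the count is not of muscle genes alone. hlh-8, the Twist homologue of the postembryonic mesoderm lineage, and the pharyngeal myosin gene myo-2 had no summit at a 5′ end. Of the neuronal genes chosen, 4 of 19 on X and 3 of 19 on the autosomes were summit-bearing, near the 26.03% and 19.2% of all genes. unc-58 (a potassium channel) had 199, mec-10 (a touch channel subunit) 141, unc-18 (a syntaxin-binding protein) 78.3 and nlg-1 (neuroligin) 65.1. At a 5′ end, unc-18 had no summit in replicate 1 alone and nlg-1 had none in either replicate alone. cat-1, ceh-14 and dop-1 had none at a 5′ end, and in whole larvae a weak peak in many cells and a strong one in few cells cannot be told apart.

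Of the stress and defence genes chosen, 4 of 6 on X and 13 of 16 on the autosomes were summit-bearing, beside 26.03% and 19.2% of all genes. Of the insulin and energy kinase genes, 3 of 5 on X and 3 of 11 on the autosomes were. atf-4 and atf-6, bZIP factors of the integrated stress and unfolded protein responses, had 295 and 239, pek-1, the PERK kinase, had 129.9 and jkk-1, a JNK pathway kinase, had 84.1. mek-1 and sek-1, kinases of the JNK and p38 cascades, had no summit within 1000 bp of a 5′ end, although a peak of 401 lay within 3000 bp of sek-1. aak-2, a catalytic subunit of AMP-activated kinase, had 417, akt-2 had 236 and sgk-1 had 83.7. In replicate 2 alone sgk-1 had no summit within 1000 bp of a 5′ end. In the IDR list ist-1 and pdk-1 had none there. Inside or no more than 3000 bp from these genes, the highest peak was 83.7 for ist-1 and 113 for pdk-1.

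Yolk genes, most of which are X-linked and act in the adult intestine, had no summit at their starts. Of the yolk and lipid genes chosen 1 of 6 on X was summit-bearing, hosl-1 (a hormone-sensitive lipase) with 82.7, against 13 of 24 on the autosomes, beside 26.03% and 19.2% of all genes. vit-1, vit-2 and vit-3, vitellogenin genes, had no summit within 1000 bp of a 5′ end, and near-identical vit copies can split or lose reads. A peak of 181 lay within 3000 bp of vit-1. Of the GATA factor genes 1 of 4 on X was summit-bearing, near the share of all X genes, and 1 of 7 on the autosomes. The X gene was elt-2 of the intestine, with 167. elt-3, elt-4 and med-1 had no summit at a 5′ end, although elt-3 held an intronic peak of 250.3 and elt-4 had one of 114.9 in or near it. Of the body-shape collagens 2 of 3 on X and 3 of 17 on the autosomes were summit-bearing. dpy-3 had 77.8 and dpy-7 64.1, where the weakest X peak had 62.0, and dpy-8 had none. Neither dpy-3 nor dpy-7 had a summit within 1000 bp of a 5′ end in replicate 2 alone. Of the cell type markers chosen 1 of 3 on X was summit-bearing (elt-2, and not asp-3 or elt-3), against 8 of 17 on the autosomes.

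Gene families varied around the 26.03% of X genes and 19.2% of autosomal genes that were summit-bearing. Of the nuclear hormone receptor (nhr) genes 12 of 23 on X were summit-bearing (52.2%), against 90 of 246 on the autosomes (36.6%), both above those shares, and nhr-14, nhr-48, nhr-1, nhr-3 and nhr-35 had the strongest, from 415 to 899.5. Homeobox genes named ceh were summit-bearing in 1 of 18 cases on X and 7 of 45 on the autosomes. Of the flp neuropeptide genes 0 of 13 on X and 0 of 18 on the autosomes were, of the innexin genes 0 of 4 and 2 of 17, and of the hlh genes 0 of 6 and 3 of 19. Cuticle collagens named col were summit-bearing in 3 of 27 cases on X (11.1%) and in 13.95% of cases on the autosomes. These counts are few, and the families were not tested against each other.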

How the data were processed

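SMA-9 ChIP-seq was measured in 2 biological replicates of 1 group, per the labels. The authors deposited peak lists, in which each peak has a signal value (the caller's own score, of unstated scale) and a −log10 q-value that is the same for all IDR peaks. Per the notes deposited with the files, calls were made on each replicate and on pooled reads with a control, and IDR kept the final list. The sources used here name no aligner, peak caller or IDR threshold, and read depth is unknown.

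The ce11 list was joined to Ensembl gene models and the RefSeq sequence of WBcel235, the same build, in Python 3.11.15 with numpy 2.4.6, pandas 2.3.3 and scipy 1.17.1. Summits were classed, in order, as coding exon, 5′ UTR, 3′ UTR, upstream (1000 bp before a protein-coding 5′ end), intron, other gene and distal intergenic. Each replicate's strongest 7065 nuclear calls stood as that replicate alone. Wilson intervals (95%) cover counting error over peaks, genes or windows, which are not independent replicates. The functions were tested on simulated data. The ce10 list was used only for its count by chromosome.

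The members, gene lists, motifs and naming rule were chosen with earlier results of these data known. The rule named the 15 strongest X peaks, the 8 genes with most summits, up to 4 summit-bearing and 3 other X members of each list, the 5 densest windows, the 5 longest gaps and the sma-9 locus. Motif-window genes, microRNA (mir-84 included), long RNA and family members and daf-12 were named outside it, after their values were seen. The separation of replicates by culture is as the labels state it.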

Additional observations from a re-analysis of the deposited data

How the results depend on the processing

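In the alternatives run, the X value kept its side of the autosomal value for density, class shares, gene share, centre share, median signal and the motif core. The exception was the share of summits with a close neighbour, which was 33.1% on X and 34.1% on the autosomes in the 50% of the IDR list with highest signal. The X share of peaks ran from 22.9% to 24.4%, where X makes up 17.7% of the length. Its side of the autosomes together could not change, so that comparison shows nothing. No paired analysis was possible because the labels give 1 group. Alternatives that leave out tRNA neighbours, widen the centre or concern the motif were chosen after seeing the data.

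With each replicate alone, the density ratio ran from 1.39 to 1.49, the share of peaks from 22.9% to 24.3%, the upstream share from 35.7% to 36.1%, the intron share from 21.2% to 21.5%, the distal intergenic share from 29.6% to 29.7%, the gene share from 24.2% to 26.2%, the centre share from 34.9% to 35.3%, the close neighbour share from 48.3% to 50.7%, the median signal from 51.8 to 61.5 and the motif share from 1.05% to 1.11%. In those strongest 50%, the upstream share was 40.9%, the intron share 19.5%, the gene share 14.6%, the centre share 34.0%, the median signal 168 and the motif share 1.56%. In the first pooled calls, 2 times as many, these were 31.3%, 22.6%, 41.0%, 36.3%, 61.4 and 0.58%, the distal intergenic share was 30.03% and the close neighbour share 68.0%. Windows of 500 and 2000 bp gave upstream shares of 26.8% and 49.7%, distal intergenic shares of 36.7% and 21.8% and gene shares of 19.8% and 34.5%. Distances of 1000 and 5000 bp gave close neighbour shares of 27.7% and 74.4%. Per protein-coding gene the density ratio was 2.0. Without peaks near tRNA genes it was 1.38, and the upstream, intron and distal intergenic shares were 38.1%, 20.2% and 30.4%. Without peaks at sma-9 the centre share was 34.2%, and the central 50% of its length held 51.9% of X summits. Motif windows of 100 bp on each side gave 1.47%. IDR peaks on X overlapping a peak of both replicates alone made up 72.6%, or 69.1% with at least 50% of the peak covered. Fewer or more peaks and wider windows change shares by construction.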
